A study of Mus musculus with 28 samples.

Results

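The genes described here are 10 mouse genes of the primitive endoderm and of the basement membrane it lays down: *Gata4*, *Gata6*, *Sox17*, *Sox7*, *Foxa2*, *Dab2*, *Lama1*, *Lamb1*, *Col4a1*, and *Col4a2*. They were found by symbol and joined by gene ID across an RNA-seq table of control and *Ssrp1* knockdown (KD) libraries, a table of means over neural progenitor cells (NPCs) and mESCs, raw counts of chromatin-bound RNA, and lists of SSRP1 and SUPT16 ChIP-seq peaks. Values per library were found for 9 of the 10, among 15384 genes. *Foxa2* was not in that table, which the authors limited to genes above a low count threshold.

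SSRP1 and SUPT16 are the subunits of FACT, a histone chaperone. All RNA-seq samples came from the mouse embryonic stem cell line E14, grown in serum with LIF at 10 ng/ml, the cytokine that keeps mESCs undifferentiated. The KD cells carried a pair of *Ssrp1* shRNA vectors together. The control cells were labelled control, and the authors' methods give a scramble control vector for them. RNA was collected after 48 h of transfection and a further 24 h of puromycin at 2 µg/ml in both groups, with ERCC spike-in RNA added, and 4 libraries were analysed in each group. The NPCs came from the same line through embryoid bodies kept in 1 µM retinoic acid for 4 d and then without LIF for 3 d (3 libraries). Chromatin RNA (2 libraries) and ChIP-seq were made from unmodified E14 cells. The vectors acted in a transfected and selected population of a single cell line.

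Primitive endoderm is the layer that separates from the epiblast in the blastocyst. FGF4 from epiblast cells acts on FGF receptors and favours GATA6 in the cells that become endoderm, while NANOG marks the epiblast. GATA6 and GATA4 are zinc finger transcription factors and SOX17 and SOX7 are related HMG box factors that follow them. The cells then secrete laminin-111, a trimer of the α1 chain (*Lama1*), the β1 chain (*Lamb1*), and the γ1 chain (*Lamc1*), and type IV collagen, a trimer of α1 and α2 chains (*Col4a1* and *Col4a2*). Cultures of mESCs also make laminin and type IV collagen themselves. In bulk RNA, fewer cells of a type and less RNA per cell cannot be told apart.

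*Foxa2*, a forkhead factor of visceral and definitive endoderm, was the only gene of the 10 that the authors' nearest-gene assignment gave a FACT peak, so the sequence under that peak is shown with promoters of *Foxa2* and *Dab2* and with the start shared by *Col4a1* and *Col4a2*. The peak of SSRP1 covered 392 bp at chr2:148030177-148030568 (mm10), 12310 bp beyond the end of *Foxa2* (chr2:148042878-148046969, minus strand) and inside the long noncoding gene *9030622O22Rik* of RefSeq. Letters in capitals are matches, on either strand, to 5 kinds of motif. The GATA motif was searched as AGATAA, with the variants that end in G (AGATAG) or that begin with T (TGATAA and, with both changes, TGATAG). The SOX motif was searched as AACAAT and, in a longer form, as AACAAAG. The others were TATAAA of the TATA box, the box named CCAAT, and the SP1 motif GGGCGG. The peak was read from GRCm38 by coordinates and the promoters were taken from RefSeq tables of GRCm38.p6.
*Foxa2* SSRP1 peak, central 300 bases (chr2:148030223-148030522, plus strand): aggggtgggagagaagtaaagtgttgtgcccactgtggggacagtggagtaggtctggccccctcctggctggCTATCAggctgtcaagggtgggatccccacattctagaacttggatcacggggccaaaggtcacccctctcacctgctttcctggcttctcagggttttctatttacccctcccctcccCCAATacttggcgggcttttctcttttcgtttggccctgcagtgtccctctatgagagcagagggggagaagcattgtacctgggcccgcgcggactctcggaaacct
*Foxa2* promoter, 250 bases before the start (chr2:148046970-148047219, minus strand): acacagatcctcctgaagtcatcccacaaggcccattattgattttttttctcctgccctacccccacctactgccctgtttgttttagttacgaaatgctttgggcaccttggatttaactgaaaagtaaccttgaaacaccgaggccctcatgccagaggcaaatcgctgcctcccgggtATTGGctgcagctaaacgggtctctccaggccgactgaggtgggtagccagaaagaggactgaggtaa
*Dab2* promoter, 249 bases before the start (chr15:6299539-6299787, plus strand): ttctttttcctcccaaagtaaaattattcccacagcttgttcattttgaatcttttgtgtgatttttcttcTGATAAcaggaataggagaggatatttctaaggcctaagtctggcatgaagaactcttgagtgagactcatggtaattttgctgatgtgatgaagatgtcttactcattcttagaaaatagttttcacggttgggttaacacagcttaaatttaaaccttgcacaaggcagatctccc
*Col4a1* and *Col4a2* start region (chr8:11312801-11312830, plus strand): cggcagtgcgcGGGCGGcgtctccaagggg

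The central stretch of the peak held 1 GATA match and 1 CCAAT match. Promoter windows of 300 bases, from 250 before to 50 after the start, were listed for 5 of the 10 genes, with 8 windows in all: 3 of *Foxa2*, 2 of *Dab2*, and 1 each of *Lamb1*, *Col4a1*, and *Col4a2*. *Gata4*, *Gata6*, *Sox17*, *Sox7*, and *Lama1* had no entry. A GATA match was found in the upstream *Dab2* window, which held 2, and in 1 *Foxa2* window, against 29.8% of the 32851 promoters of the same length. No window held a SOX match, against 15.7% of all promoters. The windows of *Lamb1*, *Col4a1*, and *Col4a2* each held 1 CCAAT match (37.4% of all promoters) and between 1 and 3 SP1 matches (35.7%). The *Foxa2* windows also held 1 or 2 SP1 matches each, and 1 of them a CCAAT match, while the *Dab2* windows held neither motif. TATAAA was found in a single *Foxa2* window (13.6%). The *Col4a1* and *Col4a2* windows overlap, so their matches and GC content come partly from the same bases. GC content was 74.0% for *Col4a1* and 73.7% for *Col4a2*, 63.7% for *Lamb1*, and 37.7% for the upstream *Dab2* window, where the median of all promoters was 52.7%. These matches describe letters in these windows.

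*Col4a1* and *Col4a2* lie head to head on chromosome 8. In the count table *Col4a1* ran from 11198423 to 11312826 on the minus strand and *Col4a2* from 11312829 to 11449287 on the plus strand, so that their starts are neighbours. The RefSeq models overlap there, from 11312805, where that of *Col4a2* begins, to 11312889, the upper end of that of *Col4a1*. Reads of that overlap could have been split between the genes. *Lamb1* spanned chr12:31265294-31329639 and *Lama1* chr17:67697265-67822645, both on the plus strand. *Dab2* spanned chr15:6299789-6440712 on the plus strand. *Sox7* (chr14:63943706-63950732, plus strand) and *Gata4* (chr14:63198915-63245260, minus strand) share chromosome 14, *Sox17* lay at chr1:4490928-4496413 on the minus strand, and *Gata6* is on chromosome 18. Exon lengths were 3130 bp (*Sox17*) to 9518 bp (*Lama1*) among the 9 genes, all above the median of 2690 bp over all genes tested.

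The libraries differed in depth with the group. Reads on genes were 4602278 to 6680919 in control libraries and 9433193 to 19856032 in KD libraries. The knockdown was seen in *Ssrp1* itself, at 222.6 to 260.7 in control libraries and 24.1 to 28.9 in KD libraries, on the authors' library-size scale used throughout unless another is named. The RNA of *Supt16*, the other subunit, was at 295.8 to 345.9 in control and 480.7 to 529.4 in KD libraries. For the protein, the paper reports the opposite direction, a depletion of SUPT16 by mass spectrometry after *Ssrp1* knockdown. Among all genes, 20.6% were called lower and 8.07% higher in KD (limma, absolute log2 fold change above 1 and adjusted p below 0.01). This split moved with the level: of 7275 genes with a mean value under 20, 38.4% were called lower and 3.3% higher, and of 4483 genes with a mean of at least 50, 2.28% were called lower and 15.3% higher. The part of depth in this was not tested.

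All 4 GATA and SOX factors with values were called lower in the KD, by 2.57-fold to 6.87-fold in mean value, while *Dab2* and the 4 laminin and collagen genes were lower by smaller amounts, from 1.16-fold to 1.96-fold, were not called, and had log2 fold changes above 0 on the spike-in scale. The 4 called genes of 9 stand beside the 20.6% of all genes called lower and, since the factors had mean values under 20, beside the 38.4% of genes at such levels. The median log2 fold change was -0.96 for the 9 genes and -0.03 for all genes. All 9 were lower at an adjusted p below 0.01 when no fold threshold was set, as were 37.3% of all genes. KD values lay entirely below control values for 8 of the 9, and for 37.5% of all genes. A gene such as *Sox7*, which was near the authors' expression minimum in KD cells, could enter the table through its control level, so these counts describe the genes that entered.

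*Gata6*, the earliest factor of the lineage, stood at 20.0, 26.2, 25.3, and 26.4 in control replicates 1 to 4 and at 5.31, 6.92, 6.35, and 6.38 in KD replicates 1 to 4. The highest KD library was far below the lowest control library. The log2 fold change was -1.89 ± 0.13 (SE; limma, adjusted p = 3.02e-13), which leaves 25.5% of the control mean. *Gata4*, its later partner in the same lineage, was at 5.44, 10.2, 12.2, and 8.89 in control and 1.85, 2.93, 3.50, and 3.13 in KD libraries. Replicate 1 was the lowest library of its group in both conditions, and the groups did not overlap. The log2 fold change was -1.50 ± 0.22 (limma, adjusted p = 5.67e-07).

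*Sox7* showed the largest relative difference of the 9 genes under library-size scaling. Its values were 4.36, 4.82, 5.38, and 6.56 in control and 0.741, 0.528, 0.648, and 1.16 in KD libraries, resting on 28 to 48 reads in control and 6 to 20 reads in KD libraries. All KD libraries were lower than all control libraries, with a log2 fold change of -2.20 ± 0.25 (limma, adjusted p = 8.38e-09). *Sox7* could have entered the table through its control level alone, so this separation and p-value are not free of that selection. *Sox17* was at 5.31, 5.68, 9.51, and 5.33 in control and 2.35, 2.81, 2.78, and 2.09 in KD libraries. Control replicate 3 stood well above the other control libraries. The log2 fold change of *Sox17* was -1.18 ± 0.21 (limma, adjusted p = 1.36e-05) and became -0.99 without control replicate 3, which is short of the fold threshold. These folds are on the log2(value + 0.5) scale and understate the change of low genes.

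*Dab2*, an endocytic adaptor that is needed for the sorting of the endoderm layer, was at 11.7, 15.5, 15.1, and 12.3 in control and 8.28, 7.21, 6.60, and 7.71 in KD libraries. The groups did not overlap, but the difference of -0.83 ± 0.14 on the log2 scale did not reach the fold threshold (limma, adjusted p = 5.44e-06). *Pdgfra*, a receptor kinase used as an early marker of the same layer, was close to this, at 21.1 ± 4.71 in control and 10.5 ± 1.22 in KD libraries (SD, n = 4).

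**Figure D1:**
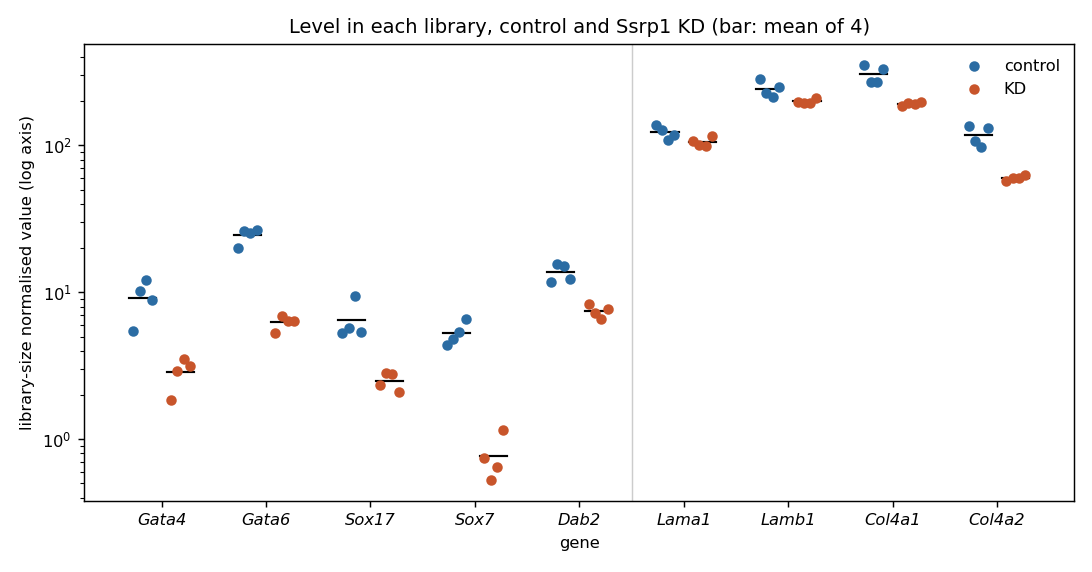
Library-size normalised value (vertical, log axis) of the 9 genes in each control (blue) and KD (orange) library, with a bar at the mean of 4 libraries. On this scale KD points lie below the control points for all genes except *Lama1*, where the groups overlap, and the separation is wider for the factors on the left (*Sox7* 0.528 to 1.16 against 4.36 to 6.56) than for the matrix genes on the right.

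The type IV collagen chains were the matrix genes with the larger differences. *Col4a1* was at 354, 268, 272, and 329 in control and 187, 195, 192, and 196 in KD libraries. Control replicates 1 and 4 were above replicates 2 and 3, while the KD libraries were within a narrow range. The log2 fold change was -0.66 ± 0.07 (limma, adjusted p = 2.31e-09). *Col4a2* was at 135, 108, 97.2, and 131 in control and 57.2, 60.0, 60.2, and 62.4 in KD libraries, with the same control replicates high. Its log2 fold change of -0.96 ± 0.08 (limma, adjusted p = 1.87e-11) lay just short of the threshold and passed it, at -1.04, without control replicate 3.

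The laminin chains differed least. *Lamb1* was at 282, 226, 212, and 251 in control and 198, 195, 193, and 211 in KD libraries. The lowest control library (212.4) and the highest KD library (211.2) almost touched, and the log2 fold change was -0.28 ± 0.07 (limma, adjusted p = 0.0006). *Lama1* was at 137, 127, 109, and 117 in control and 106, 100.2, 99.2, and 116 in KD libraries. Its groups overlapped, with KD replicate 4 above control replicate 3, and the difference was -0.21 ± 0.07 (limma, adjusted p = 0.00602). That adjusted p was above 0.01 when control replicate 1 or 2 or KD replicate 1, 2, or 3 was left out (limma, 0.0137 to 0.0277), with DESeq2 (0.0186), and with limma without a trend (0.0527, where *Lamb1* was at 0.0231). The third chain, *Lamc1*, was at 359 ± 30.6 in control and 247 ± 15.2 in KD libraries (SD, n = 4), a log2 fold change of -0.54 ± 0.06 that was also short of the threshold.

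Genes with a mean value of at least 50 had a median log2 fold change of 0.45, and the 4 matrix genes, all in that class, were between -0.96 and -0.21. These 4 genes are also long, and the 1068 genes at that level with exons of at least 5000 bp had a median of only 0.05. After a correction for exon length *Lama1* was at 0.42 and *Lamb1* at 0.03. The median of other abundant genes after this correction was not computed, so the corrected laminin values cannot be set against it. For genes under 20 the median was -0.69, and the 4 factors and *Dab2* were between -2.20 and -0.83.

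Levels within a library can be ordered once divided by exon length. Per kb of exon, the control order was *Col4a1* (46.2 ± 6.42), *Lamb1* (42.0 ± 5.32), *Col4a2* (18.3 ± 2.84), *Lama1* (12.9 ± 1.27), *Gata6* (7.66 ± 0.94), *Dab2* (2.95 ± 0.41), *Gata4* (2.70 ± 0.84), *Sox17* (2.06 ± 0.65), and *Sox7* (1.62 ± 0.29), as mean ± SD of 4 libraries. Each of the first 5 was above its next neighbour in all 4 libraries. The last 4 were not separated from their neighbours, since each of those steps held in 3 of 4 libraries. The level of *Col4a1* was above that of 91.1% of genes per kb, and that of *Sox7* above 2.8%. In KD libraries *Lamb1* (34.5 ± 1.40) came before *Col4a1* (29.1 ± 0.63) and *Lama1* (11.1 ± 0.81) before *Col4a2* (9.33 ± 0.33), both in all 4 libraries. Each collagen chain was thus below the laminin chain that had come next after it in the control order. *Gata6* (1.95 ± 0.21) and *Dab2* (1.61 ± 0.15) kept their order in 3 of 4 KD libraries, *Gata4* and *Sox17* in 2 of 4, and *Sox7* was last in all 4, at 0.235 ± 0.084.

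Ratios between genes of the same library do not depend on a library-wide scaling factor, apart from the small part of the pseudocount, but they do move with corrections that differ between genes, such as that for exon length. They were taken on values not divided by length, so their difference between groups is the measure. Of 6 pairs compared by an exact two-sided permutation test over all 70 splits, whose smallest possible p is 0.0286, 3 reached that value. The *Col4a2*/*Col4a1* log2 ratio was -1.38 ± 0.07 in control and -1.67 ± 0.03 in KD libraries (SD, n = 4 each), with no overlap and a difference of -0.30 (exact permutation p = 0.0286, 0.0572 after Benjamini-Hochberg adjustment over the pairs). The adjusted p thus missed 0.05 for the pair of collagen chains. The *Lamc1*/*Lamb1* ratio was lower by 0.26 in KD libraries, from 0.57 ± 0.07 to 0.31 ± 0.05 (exact permutation p = 0.0286, adjusted 0.0572), while *Lamb1*/*Lama1* differed by -0.06 with overlapping groups (exact permutation p = 0.343). After the exon length correction the difference became -0.10 for *Lamc1*/*Lamb1* and -0.38 for *Lamb1*/*Lama1*, while that of *Col4a2*/*Col4a1* was -0.31, so the relative change of the laminin chains depended on this choice.

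Among the factors, *Gata6*/*Gata4* differed by -0.38 (exact permutation p = 0.114, adjusted 0.137) and *Sox17*/*Sox7* by 1.02 (exact permutation p = 0.0571, adjusted 0.0857), and both pairs overlapped between groups. The widest difference was in *Gata6*/*Nanog*, which set the endoderm factor against the epiblast factor. That log2 ratio was -2.41 ± 0.15 in control and -5.35 ± 0.15 in KD libraries, a difference of -2.94 with no overlap (exact permutation p = 0.0286, adjusted 0.0572). After the exon length correction it was -2.59. No pair could pass 0.05 after adjustment unless more pairs had reached the smallest p.

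**Figure D2:**
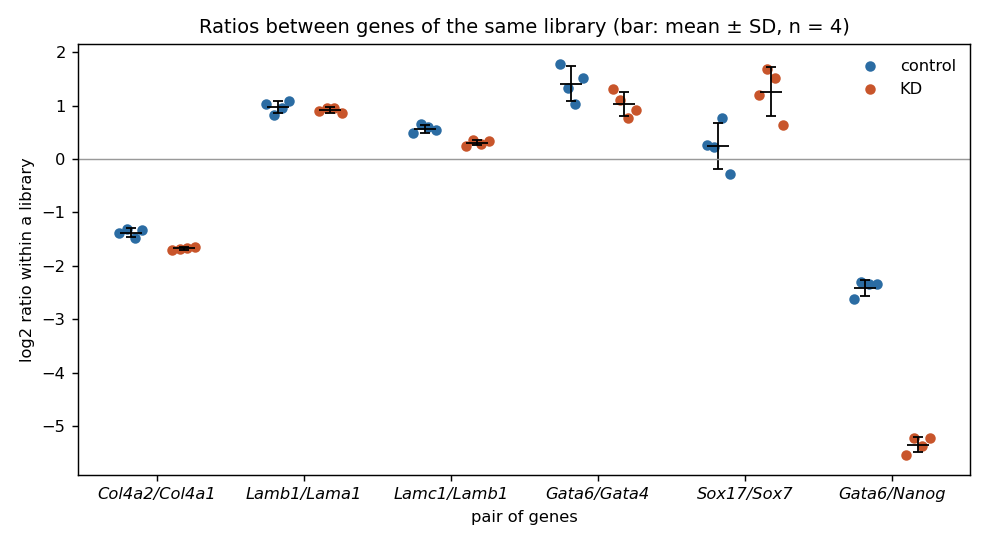
Log2 ratio of the library-size values (+ 0.5) of 2 genes in each library, for control (blue) and KD (orange), with a bar at the mean ± SD of 4 libraries. *Gata6*/*Nanog* separates the groups most (-2.41 against -5.35), *Col4a2*/*Col4a1* and *Lamc1*/*Lamb1* separate them by smaller steps, and the other pairs overlap.

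The direction of the matrix genes depended on the scaling. On the authors' spike-in scale the median of all genes was 0.95 on the log2 scale, and *Lama1* (0.81 ± 0.29), *Lamb1* (0.75 ± 0.29), *Col4a1* (0.37 ± 0.29), *Col4a2* (0.06 ± 0.29), and *Dab2* (0.15 ± 0.29) were above 0. The 4 factors stayed below 0 there: *Sox7* at -1.41 ± 0.33, *Gata6* at -0.90 ± 0.29, *Gata4* at -0.57 ± 0.31, and *Sox17* at -0.26 ± 0.31 (SE). *Sox7* was then called (limma, adjusted p = 3.79e-05), *Gata6* passed the adjusted p (limma, 0.00319) but missed the fold threshold, and the other factors passed neither. Relative to the median of all genes, all 9 were lower on that scale, from -2.37 (*Sox7*) to -0.15 (*Lama1*). The median itself moved with the level there, at 0.24 for genes with a mean value under 20 and 1.47 for genes of at least 50. *Dab2*, in the lower class, was thus close to the median of its class. The 4 factors were below that median, and the 4 matrix genes were below 1.47, a median not split by exon length.

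Quantile normalisation, which gives every library the same distribution, moved the groups of genes in opposite ways. *Col4a1* (-1.20 ± 0.05) and *Col4a2* (-1.30 ± 0.07) passed the fold threshold, and *Lamb1* (-0.81 ± 0.05) and *Lama1* (-0.60 ± 0.06) grew more negative. *Gata4* (-0.55 ± 0.22) and *Sox17* (-0.06 ± 0.20) were no longer called, while *Gata6* (-1.55 ± 0.13) and *Sox7* (-1.19 ± 0.24) were. After a correction for exon length *Lama1*, the longest of the 9, reversed to 0.42 ± 0.06 (limma, adjusted p = 2.33e-06), *Lamb1* stood at 0.03 ± 0.07, and the 4 factors stayed called at -1.11 to -2.11. *Gata6* and *Sox7* were lower relative to the median of all genes by more than 1.2 under each scaling tried.

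**Figure D3:**
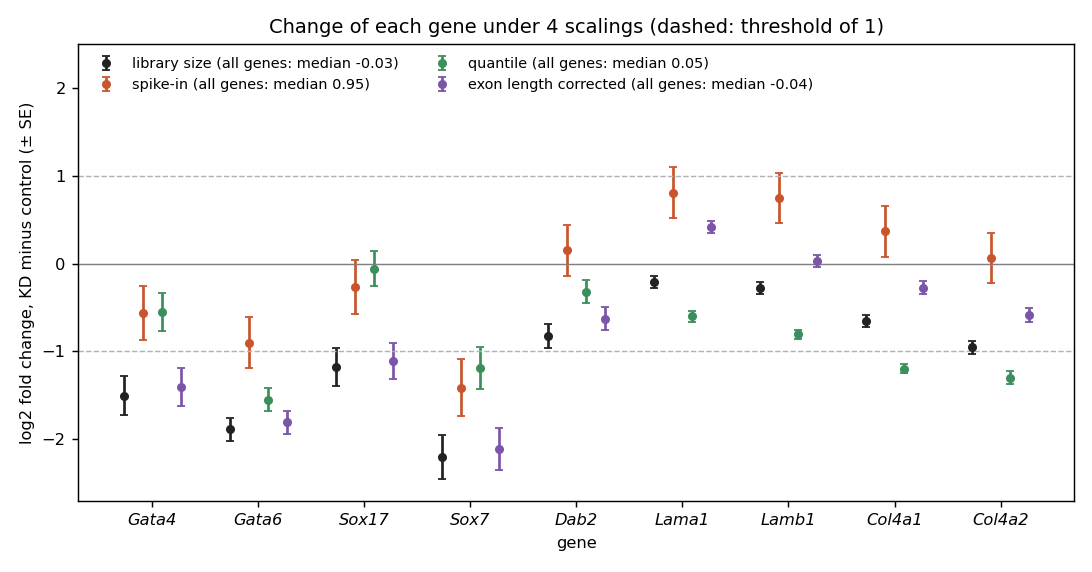
Log2 fold change (KD minus control, ± SE) of each gene under library-size (black), spike-in (orange), quantile (green), and exon length corrected (purple) values, with the median of all genes for each in the key and dashed lines at the fold threshold. The factors are below 0 under all 4, and *Lama1* ranges from -0.60 to 0.81.

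The related genes were read from lists of the lineage, the matrix, and other cell types, with counts of called genes set beside 20.6% lower and 8.07% higher over all genes. Directions are those of library-size scaling. On the spike-in scale, where the median of all genes was 0.95, the list medians were -0.83 (endothelial and blood) to 2.26 (stem cell), and they were above 0.95 for the stem cell, collagen folding, and FGF lists and below it for all others. The lists above 0.95 held 0 genes with a mean value under 20, a class whose own spike-in median was 0.24. The visceral endoderm list, with 9 of 11 genes in that class, was at 0.26, close to that class median. Under quantile normalisation the medians of the collagen folding (-0.08) and FGF (-0.07) lists turned negative and that of the visceral endoderm list turned positive (0.23), and after the length correction that of the other basement membrane components turned positive (0.10). Calls were also lost or gained, and only some of these changes are given below. Gene values are those of library-size scaling where no other is named. Of 18 primitive endoderm factors and early markers with values, 8 fell, 0 rose, and 10 were not called (median log2 fold change -0.98). Of these 18 genes 16 had a mean value under 20, the class in which 38.4% of all genes were called lower. Besides *Gata4*, *Gata6*, *Sox17*, and *Sox7*, the genes that fell were *Runx1* (-2.57), *Pth1r* (-1.57), a parathyroid hormone receptor of parietal endoderm, and the endocytic receptors *Cubn* (-1.49) and *Lrp2* (-1.06). Under quantile normalisation 5 fell and 2 rose (*Cited1* and *Srgn*), with a median of -0.25, and *Gata4*, *Sox17*, and *Pth1r* were not called. After the length correction 6 fell, and *Cubn* (-0.75) and *Lrp2* (-0.11) were short of the threshold. *Hnf4a* (-0.08) and *Amn* (0.02) were not called. *Sparc*, a matrix glycoprotein abundant in parietal endoderm, was at 145 ± 15.9 in control and 175 ± 7.82 in KD libraries (log2 fold change 0.27). The summed value of the list was 581.7 to 626.8 in control and 391.5 to 428.9 in KD libraries, and most of the drop was *Lrp2* alone (285.6 ± 20.7 in control, 137.1 ± 12.9 in KD libraries; SD, n = 4).

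Of 11 visceral endoderm genes with values, 3 fell and 0 rose (median -0.52). Of these 11 genes 9 had a mean value under 20, the class in which 38.4% of all genes were called lower, with a median of -0.69. *Apob*, an apolipoprotein, fell by 3.69, *Dkk1*, a Wnt antagonist, by 1.79, and *Hhex*, a homeobox factor, by 1.31 on the log2 scale. Under quantile normalisation *Dkk1* (-0.92) and *Hhex* (-0.28) were not called, and 3 genes rose (*Apom*, *Rbp4*, and *Spink1*). *Tdh* (0.78) and *Lgmn* (0.62) were not called. *Afp* and *Ttr*, secreted proteins that define this tissue, were among the 7 genes of the list with no value. In the definitive endoderm and mesendoderm list 4 of 6 fell (median -1.32), led by *Kdr* (-2.67) and *Hand1* (-1.73), and the levels were low, with *Mesp1* at 3.10 ± 0.24 in control libraries. All 6 were in the class under 20. Under quantile normalisation 1 of the 6, *Kdr*, was still called.

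Of 10 laminin genes 3 fell and none rose (median -0.66). The genes that fell were *Lamc3* (-3.58; 20.0 ± 2.99 in control, 1.20 ± 0.07 in KD libraries), *Lamb3* (-1.32), and *Lama4* (-1.19), chains of other laminins. After the length correction the median was -0.08 and *Lama4* (-0.85) was not called, and under quantile normalisation, where the median was -0.87, the genes called lower were *Lama5*, *Lamc1*, and *Lamc3*. *Lama5*, at 466 ± 37.9 in control and 268.5 ± 31.8 in KD libraries, was not called (-0.80). Of 3 type IV collagens *Col4a5* fell (-1.66), and *Col4a1* and *Col4a2* were not called (median -0.96). Under quantile normalisation this turned round, with *Col4a1* and *Col4a2* called lower and *Col4a5* (-0.50) not called.

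Of 12 other basement membrane components 2 fell and 0 rose (median -0.14). *Hspg2*, which encodes perlecan, fell to 128 ± 11.3 in KD libraries from a control value of 437 ± 55.4 (log2 fold change -1.76 ± 0.07 by limma, adjusted p = 1.39e-17), and *Npnt*, nephronectin, fell by 2.11. The nidogens, which link laminin to type IV collagen, were not called, with *Nid1* at 0.39 and *Nid2* at 0.48. *Hspg2* kept its direction under the spike-in, quantile, and length corrected scales. It was not called on the spike-in scale, where its groups overlapped, and its length corrected value (-0.87) was short of the fold threshold.

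In the list of collagen folding and secretion 3 of 13 rose and 1 fell (median 0.36). *P4ha1*, a prolyl hydroxylase subunit, rose by 1.60 on the log2 scale, the prolyl isomerase *Ppib* by 1.26, and *Loxl2*, a lysyl oxidase, by 1.15, while *Fkbp10*, another collagen chaperone, fell by 1.78. *Serpinh1*, the collagen chaperone HSP47, was at 122 ± 17.03 in control and 69.0 ± 3.56 in KD libraries (log2 fold change -0.81, not called), and was called lower under quantile normalisation. *Ppib* was not called after the length correction. Of 13 laminin and collagen receptors and their adaptors 4 fell and 0 rose (median -0.48): the integrins *Itga1* (-2.46) and *Itgb4* (-1.23), *Parva* (-1.67), and *Ilk* (-1.07). *Itgb4* was not called after the length correction. *Itgb1*, the common β1 chain, was at 0.11.

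Upstream of GATA6, 2 of 12 genes of the FGF list rose and 0 fell (median 0.19). *Fgf4* rose from 73.0 ± 6.60 to 211 ± 4.65 (log2 fold change 1.53 ± 0.06, limma, adjusted p = 8.41e-18) and *Etv4*, an ETS factor, rose by 1.27, while under quantile normalisation its value of 0.95 was short of the threshold. The receptors *Fgfr2* (-0.999) and *Fgfr1* (-0.89) were not called, and neither were the feedback regulators *Dusp6* (0.01) and *Spry2* (0.09). *Fgfr1* (-1.16) was called lower and *Mapk3* (1.045) higher under quantile normalisation. Of 11 epiblast and stem cell markers 8 rose and 0 fell (median 1.23), led by *Tdgf1* (2.402) and *Prdm14* (2.17), and *Nanog* rose from 131 ± 3.99 to 273 ± 10.9 (log2 fold change 1.05 ± 0.05). Under quantile normalisation 3 of the 11 were called higher (*Klf2*, *Prdm14*, and *Tdgf1*), with a median of 0.57, and after the length correction 8 were (median 1.07). *Nanog* was at 0.56 under quantile normalisation and 0.78 after the length correction.

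Markers of other cell types that such a culture could hold moved as well. Of those with values, 7 of 10 mesenchyme, 6 of 9 trophoblast, 3 of 5 neural, and 4 of 6 endothelial and blood genes had a mean value under 20. In that class 38.4% of all genes were called lower. The fibroblast and mesenchyme list had 6 of 10 genes lower and 0 higher (median -1.06), led by *Col3a1* (-2.64) and *Col1a1* (-2.58), with a summed value of 469.7 to 531.6 in control and 377.1 to 407.3 in KD libraries, most of it *Fn1*, which was not called (-0.11). In the trophoblast list 3 of 9 fell (median -0.88), with *Hand1* (-1.73) and *Cdx2* (-1.62) leading, and its sum was 1012 to 1351 in control and 778.7 to 823.9 in KD libraries. In the neural progenitor list 2 of 5 fell, *Pax6* (-1.46) and *Map2* (-1.22), and *Tubb3* rose (1.69), for a median of -0.96 and a sum of 83.7 to 107.4 in control and 144.5 to 155.5 in KD libraries. In the endothelial and blood list 4 of 6 fell, led by *Cdh5* (-2.84) and *Kdr* (-2.67), *Pecam1* rose (1.30), and the sum was 216.6 to 226.3 in control and 276.7 to 293.4 in KD libraries, with the leukocyte marker *Ptprc* not in the table. Under quantile normalisation *Postn*, *Twist1*, *Hand1* (-0.83), *Cdx2* (-0.50), *Gata3*, *Pax6* (-0.42), *Map2* (-0.31), and *Pecam1* (0.86) lost their calls. None of the 3 trophoblast genes and neither of the neural genes that fell was then still called. Other calls were gained there: *Krt8* (-1.12) and *Krt18* (-1.27) of the trophoblast list were called lower, and *Gata1* (1.06) of the endothelial and blood list was called higher. The part of these cell types in the values of the endoderm genes was not tested.

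**Figure D4:**
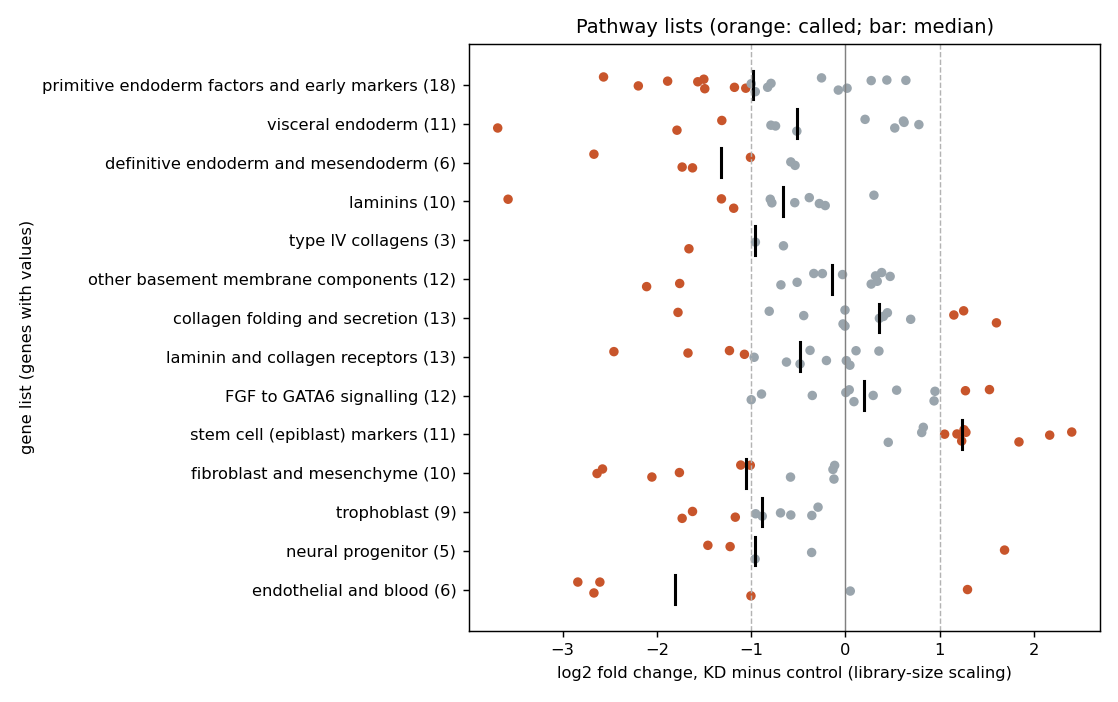
Log2 fold change (horizontal, KD minus control, library-size scaling) of every gene with a value in each list (vertical, number of genes in brackets), orange where called, with a bar at the median. The endoderm, laminin, and mesenchyme lists lie mostly left of 0, and the stem cell list (median 1.23) lies wholly to the right.

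The authors' table of NPC and mESC libraries held all 10 genes. Its deposited mean log2 CPM (reads scaled to a fixed library total), over both cell types, was 10.6 for *Col4a1*, 9.64 for *Lamb1*, 9.42 for *Col4a2*, and 8.74 for *Lama1*, each above at least 98.5% of its 14401 genes. The factors were lower in that table, with *Gata4* at 4.62, *Gata6* at 4.61, *Dab2* at 4.67, *Sox17* at 3.54, *Sox7* at 2.18, and *Foxa2* at 1.68. In the authors' table of control and KD libraries, normalised separately, the same means were 8.67 for *Col4a1*, 8.26 for *Lamb1*, 7.16 for *Col4a2*, 6.85 for *Lama1*, 3.25 for *Gata6*, 3.07 for *Dab2*, 2.56 for *Gata4*, 1.73 for *Sox17*, and 0.59 for *Sox7*. That table held 14340 genes, and whether its libraries were the set with or without spike-in was not established here. In both tables *Col4a1* had the highest mean among these genes, and the 4 matrix genes stood above the factors. Such means mix cell types or conditions and carry no spread.

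Chromatin RNA is the RNA that stays with chromatin after the cytoplasm and nucleoplasm are removed, and is rich in transcripts still being made. The 2 libraries held 3441643 and 3393923 counts, of which 5.56% and 9.35% were on protein-coding genes, so the counts of single genes were small. *Lama1* had 91 and 146 counts and *Lamb1* 56 and 66. Per kb of exon *Lama1* was above 91.5% and 90.7% of the 15531 protein-coding genes with a count, and *Lamb1* above 91.6% and 85.9%. *Col4a1* had 23 and 30 counts (71.1% and 63.7%) and *Col4a2* 9 and 11 (45.8% and 39.3%). The laminin chains were thus above the collagen chains per kb in both libraries, whereas in control RNA-seq libraries *Col4a1* was the highest of the 4.

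The factors were near the detection limit in chromatin RNA. *Gata4* had 6 and 4 counts, *Gata6* 2 and 6, *Sox7* 4 and 2, *Sox17* 3 and 2, and *Dab2* 5 and 6. *Foxa2* had 0 and 2 counts, where a count of 0 allows up to 3. At such numbers their order was not detectable, and in these 2 libraries their percentiles ranged from 19.7% to 52.3%, *Foxa2* aside. Counts on exons leave out introns, where nascent RNA of long genes such as *Dab2* and *Lama1* mostly lies.

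FACT peaks were far from these genes. By the authors' assignment to the nearest gene, 1 of the 10 genes (*Foxa2*) carried a SSRP1 peak and 0 of 10 a SUPT16 peak, where 36.0% and 18.6% of the 15384 genes with values did. No peak of either subunit overlapped the body of any of the 10 genes or lay within 5000 bp of its start, against 29.6% (SSRP1) and 17.3% (SUPT16) of all genes with a peak within that distance. The nearest SSRP1 peak was 16.4 kb from the start of *Foxa2*, 176 kb from *Sox7*, 242 kb from the shared start of *Col4a1* and *Col4a2*, 244 kb from *Gata4*, 359 kb from *Sox17*, 384 kb from *Dab2*, 684 kb from *Lamb1*, 1180 kb from *Gata6*, and 1200 kb from *Lama1*. The median was 301 kb for the 10 genes and 31.4 kb for all genes tested. For SUPT16 the nearest peaks were 83.3 kb (*Sox7*) to 2620 kb (*Sox17*) away, with medians of 1060 kb and 102 kb. The single peak of *Foxa2*, at 392 bp, was lost when peaks under 500 bp were left out, when 17.6% of all genes kept a SSRP1 peak and 6.08% a SUPT16 peak. Peaks had been called on both replicates together, so no spread between replicates can be given, and a gene without a peak in these lists may still have bound FACT below their threshold.

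**Figure D5:**
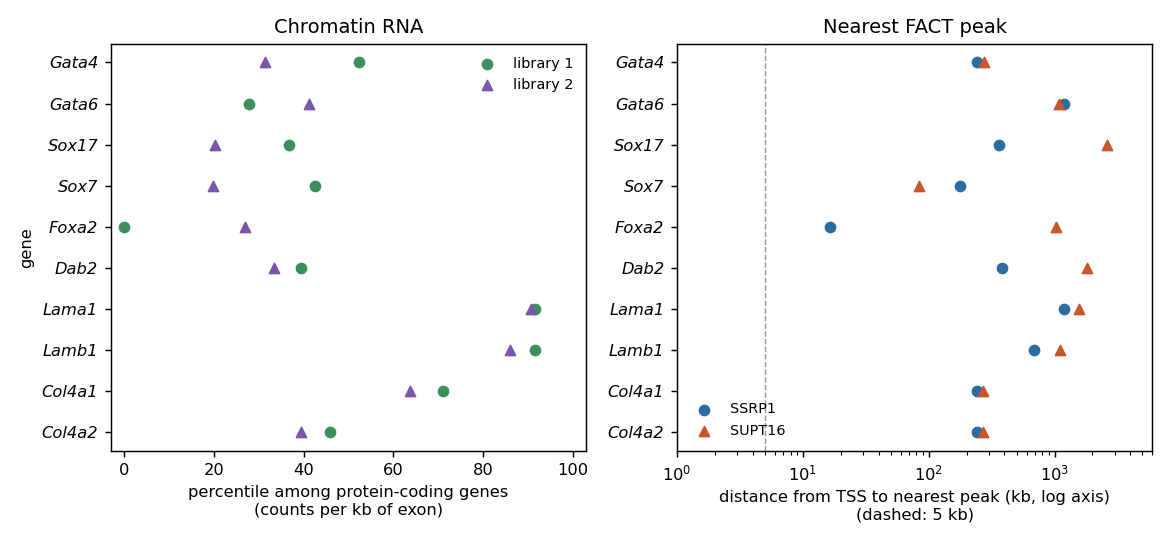
Left, percentile of each gene in chromatin RNA counts per kb of exon among protein-coding genes, for library 1 (circles) and library 2 (triangles). Right, distance from each start to the nearest SSRP1 (circles) and SUPT16 (triangles) peak in kb on a log axis, with a dashed line at 5 kb; *Lama1* and *Lamb1* lead on the left, and no gene has a peak inside the dashed line on the right.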

How the data were processed

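The authors deposited gene-level signal per library, made with STAR and featureCounts on mm10 and divided by a library-size factor or a spike-in factor, after removal of genes at low CPM. The deposited log2 means (mean log2 CPM over all libraries of a table) were made by the authors with TMM, edgeR, and limma. Their log2 fold changes, p-values, and exon tests were not used here. The deposited count of chromatin RNA per gene is raw. For ChIP-seq, the authors ran PePr on both replicates together and gave each peak to the nearest gene. The genes and lists were chosen with earlier results of these data known.

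Library-size values were recovered as whole reads within 0.1 read in 100% of values. The main test was limma 3.58.1 (R 4.3.3, trend) on log2(value + 0.5) of the 4 control and 4 KD libraries, adjusted by Benjamini-Hochberg over 15384 genes. This step, edgeR 4.0.16, and DESeq2 1.42.0 were tested on simulated data of these 15384 genes, where each recovered 100% of 200 changed genes with 0 false calls. Those changed genes were drawn from well-covered genes, with changes far beyond the fold threshold and a small fixed spread between libraries. The simulation thus does not cover genes with few reads or changes near the threshold. Alternatives were these tools on recovered reads, pseudocounts of 0.1 and 2, filters, scalings, a block on replicate number, and fits without each library in turn. Replicates differed by more than sampling noise in every pair (chi-square divided by its degrees of freedom at least 1.88). The labels do not tie replicates to separate cultures, so p-values measure the spread between these libraries. All 10 genes, fixed partners, and the 2 largest rises and falls called in each list were named, with others chosen after their values were seen. MNase-seq, ATAC-seq, and NET-seq were not analysed here. No values per library of the set without spike-in were analysed, though the authors' log2 means of control and KD libraries may come from that set. Python 3.11.15 drew the figures.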

Additional observations from a re-analysis of the deposited data

Results flagged for a closer look

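In 30 sets of 4 libraries (9 genes and 6 ratios in each group), the library farthest from its neighbours was examined, and 2 stood apart, where chance gives about 1 in 20. *Sox17* was at 9.51 in control replicate 3, with the other control libraries at 5.31 to 5.68. The *Gata6*/*Nanog* log2 ratio was -2.63 in control replicate 1, with the other control libraries between -2.35 and -2.30.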

How the results depend on the processing

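Depth limited the low genes most, with 6 to 20 reads for *Sox7* in KD libraries. With limma's treat 517 genes were higher, 1580 lower, 30 of the listed genes were called, and 2 of the 9 genes (*Gata6* and *Sox7*) were lower. On the spike-in scale these were 7394, 1082, and 1 of 9. Quantile normalisation called 1656 genes lower and a mean value of at least 5 called 2024, with 2 of 9 genes, since *Sox17* and *Sox7* were then not tested. An adjusted p below 0.05 without a fold threshold gave 5928 higher, 6309 lower, 113 listed genes, and 9 of 9. Values that reversed were, on the spike-in scale, *Dab2* 0.15, *Lama1* 0.81, *Lamb1* 0.75, *Col4a1* 0.37, and *Col4a2* 0.064, and after the length correction *Lama1* 0.42 and *Lamb1* 0.033; the causes were not tested. With a pseudocount of 2 *Sox17* was at -0.88 and not called, the *Sox17*/*Sox7* difference was 0.51, and *Gata6*/*Nanog* -2.72. After the length correction, an alternative chosen after seeing the data for the ratios, the differences were -0.101 for *Lamc1*/*Lamb1*, -0.382 for *Lamb1*/*Lama1*, and -2.586 for *Gata6*/*Nanog*. The number of genes with a SSRP1 peak became 0 with peaks of at least 500 bp and within 5000 bp of a start. Leaving out each library kept 4 of 9 called in number, with *Col4a2* entering (-1.04) and *Sox17* leaving (-0.99) without control replicate 3. Replicate numbers did not pair the samples (correlation of deviations -0.06 to 0.05), and a replicate block left the counts at 1242 higher, 3163 lower, and 4 of 9.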
